A study of Mus musculus with 4 samples.

Results

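The 10 genes described here were grouped as scavenger and phagocytic uptake receptors. Marco and Msr1 encode class A scavenger receptors, and Cd36 and Scarb1 class B scavenger receptors. Stab1 and Mrc1 encode endocytic receptors, and Cd68 a lysosomal glycoprotein of macrophages. Mertk and Axl encode receptor kinases, and Clec7a a C-type lectin. The genes were taken by symbol, and all 10 were found among the 24473 genes of the deposited expression table. The 4 libraries were RNA sequencing of BV-2, a retrovirally immortalised line of mouse microglia, the macrophages that live in the brain. There were 2 control libraries, given as wild type in the labels, and 2 libraries labelled SIX2 knockdown. SIX2 is a homeobox transcription factor, and the series title places it in the alternative activation of microglia. The cells of all 4 libraries had received lipopolysaccharide (LPS), the endotoxin of Gram-negative bacteria, at 100 ng/mL for 24 h, so no library shows the receptors without LPS. The sample titles give both groups the prefix sh, and neither the hairpin sequences nor the number of clones is given in the sources used here. The labels do not state whether replicates came from separate cultures. The p-values therefore rest on a spread between libraries that may be technical only.

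Scavenger receptors bind polyanionic ligands such as modified lipoproteins, bacterial surfaces and cell debris and bring them into the cell. Phagocytic receptors recognise apoptotic cells or microbes, directly or through bridging proteins, and start engulfment through actin remodelling. In microglia these receptors take part in the clearance of dying cells, myelin debris, lipoproteins and protein aggregates, and several of them are regulated by activation of the cell.

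Total counts were 61.0 to 75.7 M per library. Low values clustered at multiples of 4, so 1 sequenced fragment was taken as about 4 counts, and a count of 0 as compatible with up to 12 counts (3 fragments), 0.159 to 0.197 in CPM, a count expressed relative to the depth of its library. That limit covers counting error only. Six2 itself had a count of 0 in all 4 libraries, so its mRNA gives no check of the knockdown or of the labels. Of 9 microglia and macrophage marker genes all 9 had counts, and their summed level was 1151 to 1181 CPM in control and 956 to 964 CPM in knockdown libraries. P2ry12 and Cx3cr1, markers of resting microglia, lay at or under 0.853 CPM in every library. Aif1, Csf1r and Adgre1, which encode IBA1, the CSF1 receptor and F4/80, fell by 1.04, 0.48 and 0.63 on the log2 scale (adjusted p = 0.0440, 0.0426 and 0.0198, edgeR quasi-likelihood test with Benjamini-Hochberg adjustment) and passed in 7, 7 and 8 of 16 other fits. These were 3 of the 8 markers tested, against 0.547% lower and 0.407% higher over all genes at an adjusted p of 0.05. The other 5 of the 8 did not pass. Tmem119 was lower at an unadjusted p of 0.05 (log2 fold change -0.85, adjusted p = 0.0751, edgeR). Ptprc, Tyrobp, Itgam and Cx3cr1 had log2 fold changes of 0.05, -0.02, -0.08 and 0.41. Markers of other brain cells were present as traces that also differed between libraries: the 6 neuronal markers summed to 7.57 to 7.77 CPM in control and 0 to 3.73 CPM in knockdown libraries, with Snap25 and Syt1 at 0 in the second knockdown library, and the 5 oligodendrocyte markers to 17.1 to 19.1 CPM and 0.316 to 9.79 CPM. The 6 astrocyte markers summed to 28.2 to 31.8 CPM and 24.0 to 28.7 CPM, most of it from Aldoc, and Gfap was at or under 0.656 CPM. Of these markers, 6 neuronal, 4 oligodendrocyte and 5 astrocyte genes were tested, and 3, 1 and 3 of them averaged under 1 CPM. In edgeR 0 of them passed and 0 had an unadjusted p under 0.05, against 0.953% and 14.2% of all genes. The 5 endothelial markers summed to 220.2 to 223 CPM and 217 to 229 CPM, almost wholly from Kdr, and Cldn5 was at or under 0.0647 CPM. The 5 fibroblast and 6 lymphocyte markers summed to at most 0.582 and 0.315 CPM in any library, with Cd3e, Cd3d and Cd8a at 0 in all 4. The part of these differences in the results for the receptors was not tested.

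Scarb1, the tested receptor that was higher, had no promoter sequence in the sources used here. Promoter sequence is shown for 3 others: Marco, which changed, Stab1, which was lower without passing the test, and Cd68, the most abundant and steady receptor. Each is the stretch of 250 bases before the transcription start in RefSeq (GRCm38.p6), written 5′ to 3′ on the strand of the gene, and capitals mark every match to the motifs listed after the sequences.
Marco (chr1:120505025-120505274, minus strand): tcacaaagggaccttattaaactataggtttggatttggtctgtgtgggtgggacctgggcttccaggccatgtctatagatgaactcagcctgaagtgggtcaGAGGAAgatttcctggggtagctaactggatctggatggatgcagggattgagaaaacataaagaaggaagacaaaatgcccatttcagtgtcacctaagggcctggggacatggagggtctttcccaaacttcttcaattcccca
Stab1 (chr14:31168642-31168891, minus strand): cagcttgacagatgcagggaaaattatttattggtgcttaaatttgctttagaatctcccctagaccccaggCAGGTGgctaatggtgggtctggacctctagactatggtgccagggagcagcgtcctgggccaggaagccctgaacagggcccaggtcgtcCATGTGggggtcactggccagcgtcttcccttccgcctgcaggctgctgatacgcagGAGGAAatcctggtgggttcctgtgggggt
Cd68 (chr11:69666171-69666420, minus strand): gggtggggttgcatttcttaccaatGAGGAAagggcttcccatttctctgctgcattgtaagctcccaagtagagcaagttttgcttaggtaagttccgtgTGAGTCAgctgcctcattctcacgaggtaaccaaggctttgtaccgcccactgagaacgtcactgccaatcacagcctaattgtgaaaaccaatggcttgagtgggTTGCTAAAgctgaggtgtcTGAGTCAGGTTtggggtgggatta

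The 10 motifs, chosen after the data were seen, were searched on both strands, and the percentage after each is its share among the same stretches of 27025 genes. They were PU.1 (GAGGAA, 23.1%), AP-1 (TGANTCA, 6.87%), NF-kB (7.01%), C/EBP (TTGCNNAA, 9.55%), the antioxidant response element (TGACNNNGC, 10.1%), the E-box of MiT/TFE factors (CANGTG, 39.4%), the MAF half-site (TGCTGAC, 3.72%), the MEF3 motif, known as a binding sequence of SIX2-type homeobox factors (TCAGGTT, 3.49%), the interferon-stimulated response element (0.155%) and the TATA box (TATAAA, 13.0%). Promoters were found for 8 of the 10 receptors, Msr1 and Scarb1 having none. Only 1 stretch was searched per gene, and that of Cd36 lies inside the annotated span of the gene, so other starts were not covered. The PU.1 letters, those of the macrophage lineage factor, stood in 6 of the 8, all but Mertk and Cd36, and those of the strict NF-kB motif, the MAF half-site, the antioxidant and interferon elements and the TATA box in 0 of the 8. The stretch before Marco held 1 PU.1 match, 146 bases before the start, and no other match to the 10. NF-kB matches depended on how loosely the motif was written: a form with no fixed pyrimidines, not capitalised above, was in 5 of the 8, Marco included, 29 bases before the start, against 27.8% of all promoters. Stab1 held a PU.1 match 30 bases before the start and 2 E-box matches. Cd68 held 1 PU.1 match, 2 AP-1 matches and 1 C/EBP match. The MEF3 letters were present only before Cd68 among the 8, on the forward strand, where they share 3 letters with the AP-1 match nearest to the start. A match is a description of the letters in this window and no evidence of binding.

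Marco transcripts were 2.28-fold less abundant in the knockdown libraries, and Marco was the 1 receptor of the 9 tested that passed the test. Stab1, Cd36, Msr1 and Mertk were each lower in both knockdown libraries than in both controls without passing, Scarb1 was higher in both without passing, and Cd68 and Clec7a overlapped between the groups. Mrc1 and Axl lay at or near the detection floor, and Axl was too low to be tested. Over all genes, 0.953% of 15733 passed an adjusted p of 0.05 (0.407% higher and 0.547% lower), against 1 of the 9 receptors, which was lower. The calls over all genes, 150 here, came to 62, 41 and 42 without control replicate 1, control replicate 2 and knockdown replicate 2. At an unadjusted p of 0.05, 4 receptors were lower (Marco, Stab1, Cd36 and Mertk) and 1 was higher (Scarb1). This was 5 of 9, against 14.2% of all genes tested (6.7% lower and 7.52% higher). By level, the share over all genes was 5.95% under 1 CPM and 11.2% from 1 to 5 CPM. It was 16.3% from 5 to 20, 17.9% from 20 to 100 and 20.3% from 100 to 1000 CPM. By CPM, the groups did not overlap for 7 of the 9, 6 lower and 1 higher, against 47.6% of all genes (23.8% in either direction), but for Mrc1 this rests on 12 counts in each of 2 libraries of different depth. On the log2 scale the fold change (knockdown minus control) had a median of -0.47 over the 9 receptors, 8 of them below 0, and of -0.01 over all genes tested. The receptors were chosen with earlier results of these data known, so these counts describe them and are no independent evidence of a shared direction.

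**Figure D1:**
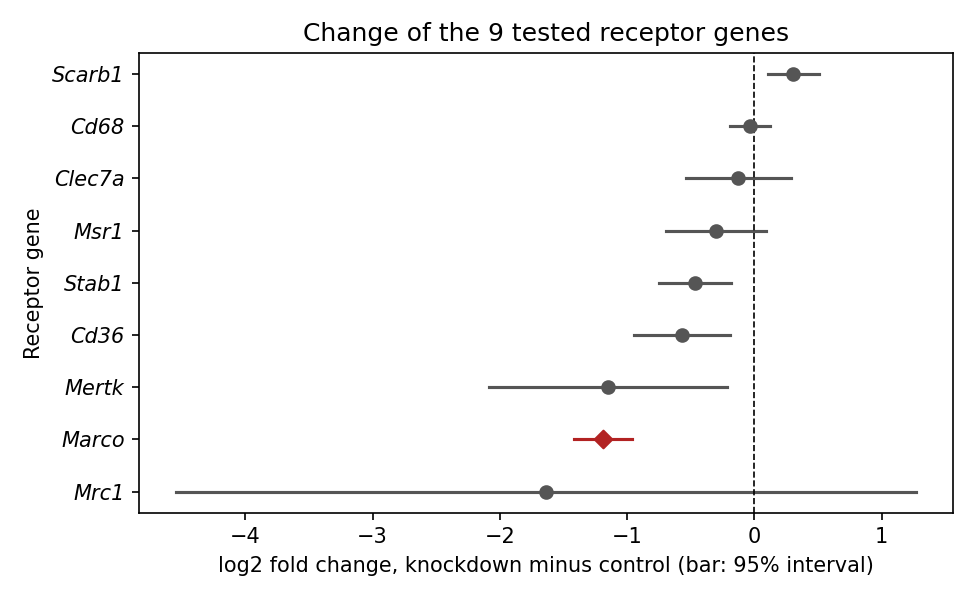
Log2 fold change (knockdown minus control, horizontal axis) of the 9 tested receptor genes, with 95% intervals from the edgeR fit; the diamond marks the gene with an adjusted p under 0.05. Marco lies at -1.19 with a narrow interval, Scarb1 at 0.31, and the interval of Mrc1 runs from -4.54 to 1.27.

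The receptors differed widely in level. On the FPKM scale, which is scaled to transcript length and so allows genes to be compared, Cd68 had 468 and 485 FPKM in the 2 controls against 463 and 443 FPKM after knockdown, ranking from 113 to 120 among 24473 genes. Marco followed with 77.4 and 79.5 FPKM in the 2 controls against 30.9 and 36.1 FPKM after knockdown, and its rank went from 725 and 722 in control to 1820 and 1582 in knockdown libraries. Scarb1 had 12.9 and 13.3 FPKM in the 2 controls against 16.7 and 14.8 FPKM after knockdown. The ranges of these 3 over the 4 libraries did not overlap one another. Below them, Cd36, Clec7a, Stab1 and Msr1 lay between 1.34 and 4.48 FPKM, and each of the 4 overlapped its neighbour in the order. Cd36 was above Clec7a in 2 of the 4 libraries. Mertk came next, apart from Msr1, and Mrc1 and Axl overlapped at the bottom, at no more than 0.0788 FPKM.

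**Figure D2:**
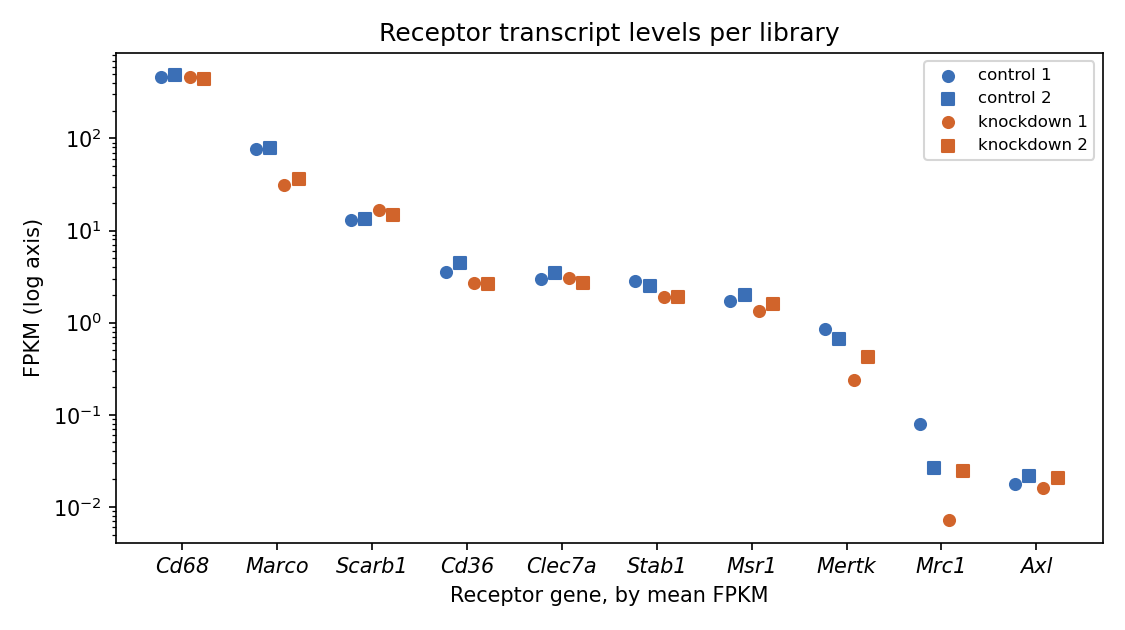
FPKM (log axis) of each receptor gene in the 4 libraries, ordered by mean level; blue is control, orange is knockdown, circles are replicate 1 and squares replicate 2. Marco is the only gene among the 3 highest whose knockdown libraries (30.9 and 36.1 FPKM) lie well below its controls (77.4 and 79.5 FPKM).

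Ratios within a library do not depend on how libraries are scaled to one another. Of the summed FPKM of the 10 receptors, Marco made up 13.6% and 13.5% in the control libraries and 5.94% and 7.17% in the knockdown libraries, and Scarb1 2.26% and 2.25% against 3.22% and 2.95%. Cd68 made up 82.1% and 82.1% against 89.1% and 88.0%. The FPKM of Cd68 was 6.05 and 6.10 times that of Marco in control and 15.0 and 12.3 times in knockdown libraries. Marco stood at 6.01 and 5.99 times the FPKM of Scarb1 in control and at 1.85 and 2.43 times in knockdown libraries. For each of these ratios the 2 groups did not overlap. The controls lay close together, while the knockdown libraries stood further apart.

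Of the class A scavenger receptors, trimeric membrane proteins with a collagen-like stalk, Marco binds bacteria, particles and modified lipoproteins through its cysteine-rich domain. Marco (ENSMUSG00000026390, chromosome 1, 120474538 to 120505024, minus strand) on GRCm38 had 12558 and 10349 counts in the 2 controls against 4954 and 4965 counts after knockdown. Scaled for library size by the TMM method of edgeR, this was 165 and 167 CPM in the 2 controls against 66.9 and 78.4 CPM after knockdown. Both knockdown libraries lay far below both controls, and the controls differed from each other by under 3 CPM. Marco fell by 1.19 ± 0.10 on the log2 scale (SE), a 2.28-fold lower level, with a 95% interval of -1.42 to -0.96 (adjusted p = 0.0123, edgeR quasi-likelihood test with Benjamini-Hochberg adjustment). Among the 86 genes that fell, it ranked number 6 by p and number 23 by size of change.

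The estimate for Marco stayed between -1.31 and -1.08 in 16 other fits, which reused the same libraries, and passed in 12 of them. It did not pass without the robust option of edgeR (adjusted p = 0.0563), with the replicate number as a block (adjusted p = 0.0533) or with limma on log2(FPKM + 1) and log2(FPKM + 0.1) (adjusted p = 0.150 and 0.122). Leaving out each library in turn gave -1.31 to -1.08, with an adjusted p of 0.0349 and 0.0481 without control replicate 1 and 2, and 0.0259 and 0.0238 without knockdown replicate 1 and 2 (edgeR, the lone library of a group being assumed to vary like the other group).

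**Figure D3:**
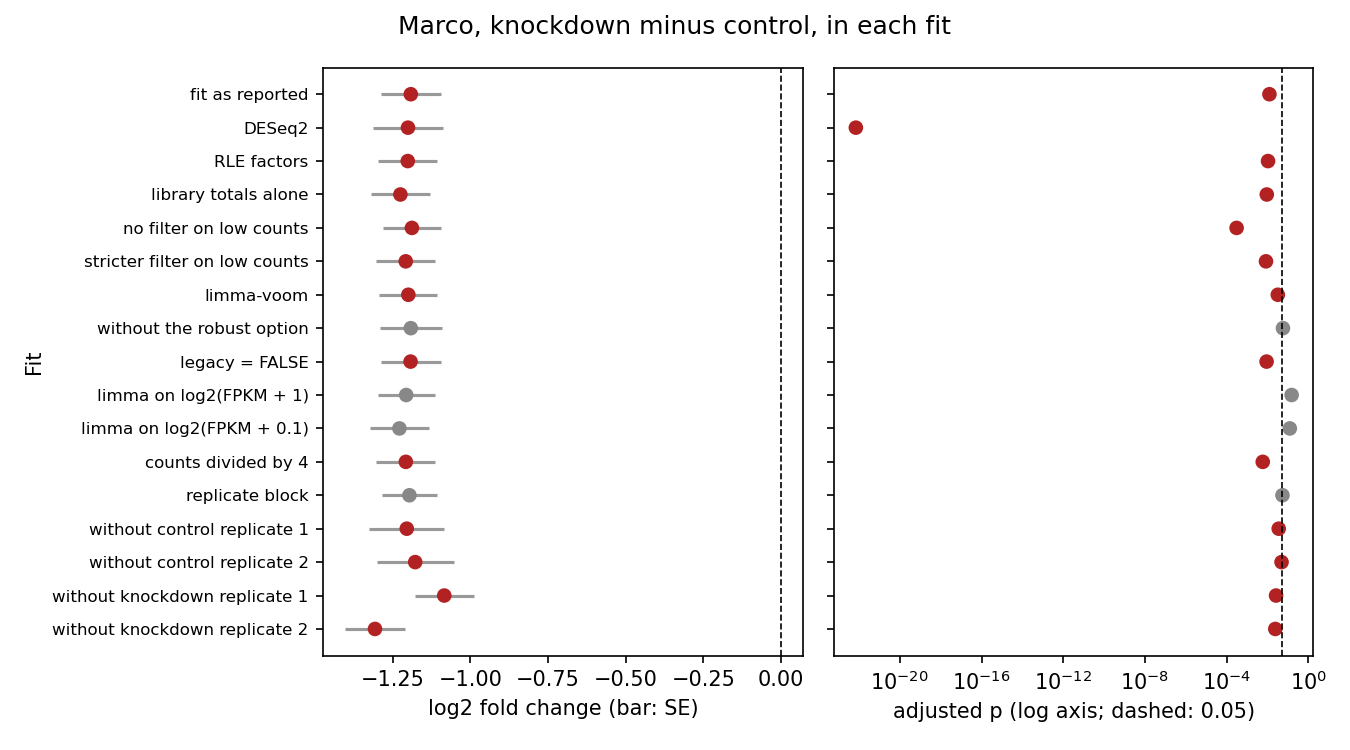
Left, log2 fold change of Marco (knockdown minus control) with SE in the fit as reported and in 16 alternatives; right, its adjusted p on a log axis, with the dashed line at 0.05 and red points below it. The fold change stays between -1.31 and -1.08, while 4 fits put the adjusted p just above or above 0.05.

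The other class A receptor, Msr1, also called SR-A, takes up acetylated and oxidised LDL and was among the lower-expressed receptors here. Msr1 (ENSMUSG00000025044, chromosome 8, 39581685 to 39642673, minus strand) had 12.1 and 13.7 CPM in the 2 controls against 9.55 and 11.4 CPM after knockdown. The groups did not overlap, but the gap between them, from 11.4 to 12.1 CPM, was smaller than the spread within either group. Its log2 fold change was -0.30 ± 0.17 (SE, 95% interval -0.70 to 0.09, adjusted p = 0.477, edgeR). Marco stood at 44.8 and 40.2 times the FPKM of Msr1 in control and at 23.1 and 22.6 times in knockdown libraries. Whether the changes of the 2 genes differ was not tested.

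The class B receptors, which have 2 membrane-spanning segments and bind lipoproteins and fatty acids, went in opposite directions, and neither passed. Cd36 imports long-chain fatty acids and oxidised LDL and works with Toll-like receptors on fibrillar ligands. Cd36 (ENSMUSG00000002944, chromosome 5, 17781690 to 17888801, minus strand) had 14.3 and 17.6 CPM in the 2 controls against 10.9 and 10.6 CPM after knockdown. The knockdown libraries were nearly equal and lay below both controls, which differed from each other by more than 3 CPM. Its log2 fold change was -0.57 ± 0.16 (SE, 95% interval -0.95 to -0.19, unadjusted p = 0.00903, adjusted p = 0.185, edgeR).

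Scarb1, or SR-BI, exchanges cholesterol with HDL and also binds apoptotic cells. Scarb1 (ENSMUSG00000037936, chromosome 5, 125277087 to 125341094, minus strand) had 121 and 123 CPM in the 2 controls against 159.9 and 142 CPM after knockdown. Here both knockdown libraries were above both controls, the first more than the second. The log2 fold change was 0.31 ± 0.08 (SE, 95% interval 0.11 to 0.51, unadjusted p = 0.00866, adjusted p = 0.182, edgeR), and it did not pass in any of 16 other fits. Leaving out each library in turn gave 0.22 to 0.39. The gene overlaps the unexpressed model Gm42633, which had 0 counts in all 4 libraries.

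Stab1, or stabilin-1, is a large endocytic receptor of macrophages for acetylated LDL and phosphatidylserine. Stab1 (ENSMUSG00000042286, chromosome 14, 31139013 to 31168641, minus strand) had 32.1 and 28.3 CPM in the 2 controls against 21.8 and 21.9 CPM after knockdown. The 2 knockdown libraries agreed closely and lay below both controls. Its log2 fold change was -0.47 ± 0.12 (SE, 95% interval -0.75 to -0.18, unadjusted p = 0.00601, adjusted p = 0.159, edgeR), and DESeq2 alone of the other 16 fits passed it (adjusted p = 0.0452). DESeq2 called 2 receptors in all, Marco and Stab1, both lower, against 4.22% of all genes it tested (2.04% higher and 2.18% lower). Stab1 overlaps Nt5dc2, a gene on the opposite strand, which had 179 and 171 CPM in the 2 controls against 135 and 128 CPM after knockdown. Both genes were lower in the knockdown libraries, Nt5dc2 by a log2 fold change of -0.41 ± 0.07 (adjusted p = 0.0738, edgeR). Nt5dc2 passed in 2 of 16 other fits. The libraries were made with a strand-marking kit, but the strand setting of the counting was not given, so reads of the 2 genes may not be fully separated where they overlap.

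Mrc1, the mannose receptor CD206 and a usual marker of alternative activation, was close to the floor. Mrc1 (ENSMUSG00000026712, chromosome 2, 14229392 to 14332057, plus strand) had 43 and 12 counts in the 2 controls against 4 and 12 counts after knockdown, that is between 1.00 and 10.8 fragments per library. One library in each group had 12 counts, and 3 of the 4 libraries were at or under the floor. Its log2 fold change of -1.64 ± 1.22 (SE) had a 95% interval of -4.54 to 1.27 and an adjusted p of 0.619 by edgeR, so a fall of several fold could not have been detected at this depth. Leaving out each library in turn gave -2.77 (without knockdown replicate 2) to -0.67 (without control replicate 1). Over all genes under 1 CPM the median was -0.26, against 0.04 from 100 to 1000 CPM.

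Cd68, or macrosialin, a lysosomal glycoprotein of macrophages that is used as a general marker of phagocytes, was steady. Cd68 (ENSMUSG00000018774, chromosome 11, 69664213 to 69666153, minus strand) had 650.0 and 667 CPM in the 2 controls against 654 and 628 CPM after knockdown. The groups overlapped, and all 4 libraries lay within 1.06 times of one another. The log2 fold change was -0.04 ± 0.07 (SE), and its 95% interval of -0.19 to 0.12 is narrower than that of any other receptor here and contains no change beyond 1.14-fold (adjusted p = 0.868, edgeR).

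Of the TAM receptor kinases, which sense phosphatidylserine on apoptotic cells through the bridging proteins Gas6 and protein S, Mertk was low and Axl was at the floor. Mertk (ENSMUSG00000014361, chromosome 2, 128698956 to 128802894, plus strand) had 314 and 195 counts in the 2 controls against 87 and 133 counts after knockdown, or 4.12 and 3.15 CPM in the 2 controls against 1.17 and 2.10 CPM after knockdown. Both knockdown libraries were below both controls, and the libraries within a group differed by 1.31 and 1.79 times. Its log2 fold change of -1.15 ± 0.39 (SE) was close in size to that of Marco, but with a far wider 95% interval of -2.09 to -0.22 (unadjusted p = 0.0227, adjusted p = 0.260, edgeR). Leaving out each library in turn gave -1.63 to -0.79. Over all genes from 1 to 5 CPM the median was -0.11, and the traces of neuronal and oligodendrocyte transcripts were lowest in the knockdown libraries; their part was not tested. The antisense gene Gm14011, which overlaps Mertk, had 0 counts in all 4 libraries.

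Axl, the TAM receptor that interferon and LPS are known to induce in many macrophages, was not usefully detected. Axl (ENSMUSG00000002602, chromosome 7, 25757273 to 25788705, minus strand) had 8 counts in each of the 4 libraries, about 2 fragments, and 0.105 to 0.129 CPM, under the floor of 12 counts. It did not pass the filter on low counts and no fold change is given. Tyro3, the third TAM receptor, had 16 and 8 counts in the 2 controls against 0 and 0 counts after knockdown, and was not tested either.

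Clec7a, or Dectin-1, binds fungal beta-glucan and signals through Syk and Card9; in microglia it is also known as a marker of the disease-associated state. Clec7a (ENSMUSG00000079293, chromosome 6, 129461591 to 129472779, minus strand) had 8.71 and 9.90 CPM in the 2 controls against 8.97 and 8.07 CPM after knockdown. The groups overlapped, and both first libraries were close to each other. The log2 fold change was -0.13 ± 0.17 (SE, adjusted p = 0.812, edgeR), with a 95% interval of -0.54 to 0.29 that leaves room for changes of up to 1.45-fold downward and 1.22-fold upward.

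The genes around the receptors were taken from 12 lists by known function, chosen with earlier results of these data known, and were read in the same fit over all genes. Among the ligands and opsonins that bridge targets to these receptors, 14 of 16 were tested, 4 fell, 0 rose and 10 did not pass, against 0.547% lower and 0.407% higher over all genes, with a median log2 fold change of -0.27. The 4 became 2 without control replicate 1, without control replicate 2 or without knockdown replicate 2, and also without the robust option, and 0 with the replicate block or with limma on FPKM. Those that fell were C1qa, C1qb and C1qc, the chains of the complement starter C1q, and C3, the central complement protein that opsonises debris. C1qc had 118 and 121 CPM in the 2 controls against 52.6 and 55.5 CPM after knockdown and fell by 1.15 ± 0.08 log2 units (SE, adjusted p = 0.00646, edgeR with Benjamini-Hochberg adjustment). C1qb had 211 and 200.1 CPM in the 2 controls against 104 and 102 CPM after knockdown, and C3 213 and 228 CPM in the 2 controls against 137 and 129 CPM after knockdown. C1qb and C1qc passed in 13 of 16 other fits, C3 in 9 and C1qa in 7. Of the TAM ligands, Gas6 had 8 and 8 counts in the 2 controls against 12 and 0 counts after knockdown, at or under the floor, and was not tested. Pros1, which encodes protein S, had 68 and 19 counts in the 2 controls against 40 and 65 counts after knockdown, with overlapping groups (adjusted p = 0.890, edgeR). Mfge8, which bridges phosphatidylserine to integrins, was steady at 235 ± 2.54 CPM (control) against 237 ± 9.07 CPM (knockdown) (SD, n = 2 each). Gas6, Pros1, Mfge8 and C1qa were named for their part in the receptors' biology, outside the naming rule and after their values were seen, as were Tyro3, Nt5dc2, Gm42633, Gm14011, Steap3, Dbi and the marker genes given above.

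Other receptors with related tasks were read beside the shares over all genes in edgeR. These were 0.547% lower and 0.407% higher at an adjusted p of 0.05, and 6.7% and 7.52% at an unadjusted p of 0.05. Of other scavenger receptors, 9 of 15 were tested and 0 passed, with 0 at an unadjusted p of 0.05 by edgeR (median -0.09). Of the 9 tested, 5 averaged under 1 CPM, a level at which 0.0531% of all genes passed. The scavenger receptor gene Cd163 was at 0 in all 4 libraries. Colec12, a scavenger receptor with a lectin domain, had 79.5 ± 3.55 CPM (control) against 89.4 ± 4.76 CPM (knockdown) (SD, n = 2 each), and Scarb2, the LIMP-2 protein of lysosomes, 46.4 ± 0.799 CPM (control) against 45.5 ± 2.91 CPM (knockdown). Of the LDL receptor family, 9 of 10 were tested and 0 passed, 2 being higher and 0 lower with an unadjusted p under 0.05 in edgeR (median -0.13). Lrp1, an endocytic receptor for apolipoprotein E and debris, had 202 and 197 CPM in the 2 controls against 280.3 and 257 CPM after knockdown (adjusted p = 0.0656, edgeR, against 0.000498 by DESeq2 and 0.0257 in edgeR with no filter on low counts), and Sorl1, a sorting receptor, 107 ± 4.44 CPM (control) against 106 ± 2.87 CPM (knockdown).

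Of other receptors for apoptotic cells and debris, 13 of 17 were tested and 0 passed, 2 being higher and 2 lower with an unadjusted p under 0.05 in edgeR (median -0.07). Trem2, the lipid-sensing receptor of microglia, had 58.1 and 59.9 CPM in the 2 controls against 87.8 and 76.4 CPM after knockdown (adjusted p = 0.0969, edgeR, against 0.00630 by DESeq2 and 0.0459 with no filter), and Itgam, a chain of complement receptor 3, 92.0 ± 4.05 CPM (control) against 87.1 ± 9.31 CPM (knockdown). Of other C-type lectin receptors, 12 of 18 were tested (median -0.16). With an unadjusted p under 0.05 in edgeR, 1 was higher and 3 lower. At an adjusted p of 0.05, 1 fell and 0 rose, against 0.547% lower and 0.407% higher over all genes. The 1 that fell was Clec4a1, a member of the dendritic cell immunoreceptor family. Clec4a1 had 69.7 and 72.4 CPM in the 2 controls against 41.4 and 47.6 CPM after knockdown (log2 fold change -0.67 ± 0.10, adjusted p = 0.0423, edgeR).

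Against 0.953% of all genes tested (4.22% by DESeq2), 0 of the genes downstream of the receptors passed in the fit as reported. DESeq2 called 3 of them, Pik3ap1 lower and Fyn and Myo1e higher, and edgeR without control replicate 2 called Cbl, higher. These 4 kinase, adaptor and motor genes were named after their values were seen. Of Dectin-1 and ITAM signalling genes, 19 of 19 were tested (median -0.05). With an unadjusted p under 0.05 in edgeR, 3 were higher and 3 lower, against 7.52% and 6.7% of all genes. Ptpn6, the phosphatase SHP-1, had 402 ± 10.3 CPM (control) against 361 ± 15.9 CPM (knockdown), and Tyrobp, the adaptor DAP12, 309.8 ± 8.93 CPM (control) against 306 ± 5.06 CPM (knockdown) (SD, n = 2 each). Of engulfment machinery genes, 18 of 19 were tested, 3 being higher and 2 lower with an unadjusted p under 0.05 in edgeR (median 0.02). Arpc2, a subunit of the actin-nucleating Arp2/3 complex, had 625 ± 26.7 CPM (control) against 613 ± 2.50 CPM (knockdown), and Cdc42, a small GTPase that directs actin assembly, 562 ± 16.4 CPM (control) against 593 ± 30.0 CPM (knockdown). Of phagosome maturation genes, 17 of 19 were tested, 2 being higher and 0 lower with an unadjusted p under 0.05 in edgeR (median 0.00). The lysosomal membrane protein genes Lamp1 and Lamp2 had 651 ± 16.4 CPM (control) against 655 ± 6.55 CPM (knockdown) and 336 ± 11.8 CPM (control) against 355 ± 41.3 CPM (knockdown).

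Of the genes of signals that restrain phagocytosis, 11 of 12 were tested and 0 passed (median -0.37). With an unadjusted p under 0.05 in edgeR, 0 were higher and 4 lower, against 7.52% and 6.7% of all genes. DESeq2 called 3, Siglece, Pilra and Pirb, all lower, against 2.18% lower over all genes it tested. Their log2 fold changes were -1.03, -0.57 and -1.37 (adjusted p = 0.00869, 0.0485 and 0.00293, DESeq2). Pirb also passed in edgeR with no filter on low counts (adjusted p = 0.0476). These 3 genes were named after their values were seen. Sirpa, the phagocyte receptor for CD47, had 122 and 239 CPM in the 2 controls against 215 and 224 CPM after knockdown, so its 2 controls stood far apart. Its log2 fold change of 0.28 became -0.13 without control replicate 1 and 0.85 without control replicate 2. Cd47 had 56.0 ± 9.77 CPM (control) against 65.4 ± 4.33 CPM (knockdown) (SD, n = 2 each). Of receptor shedding and trafficking genes, 11 of 15 were tested (median -0.12). With an unadjusted p under 0.05 in edgeR, 1 was higher and 4 lower. At an adjusted p of 0.05, 1 fell and 0 rose, against 0.547% lower and 0.407% higher over all genes. The 1 that fell was Socs3, a feedback inhibitor of cytokine signalling, which is not itself a shedding or coat protein. Socs3 had 65.4 and 65.2 CPM in the 2 controls against 43.2 and 45.6 CPM after knockdown (adjusted p = 0.0451, edgeR).

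Of lipid nuclear receptors and transporters, 19 of 20 were tested, 3 fell, 0 rose and 16 did not pass, and 0 passed when any 1 of the 4 libraries was left out (median -0.15). Over all genes, 0.547% were lower and 0.407% higher at an adjusted p of 0.05. With an unadjusted p under 0.05 in edgeR, 2 of the 19 were higher and 7 lower, against 7.52% and 6.7% of all genes. Fabp4 and Fabp5, which carry fatty acids within the cell, fell by 0.64 ± 0.09 and 0.43 ± 0.07 log2 units (SE, adjusted p = 0.0385 and 0.0483, edgeR). Scd2, a fatty acid desaturase, fell by 0.45 ± 0.07 (adjusted p = 0.0490, edgeR). Pparg, the nuclear receptor known to drive Cd36, had 0 and 8 counts in the 2 controls against 0 and 0 counts after knockdown, under the floor, and was not tested. Of macrophage transcription factors, 17 of 17 were tested, 1 fell, 0 rose and 16 did not pass (median -0.09). Of these 17, 0 were higher and 2 lower with an unadjusted p under 0.05 in edgeR. Maf, a transcription factor of tissue macrophages, fell by 0.76 ± 0.10 (SE, adjusted p = 0.0304, edgeR). Spi1, which encodes PU.1, had 203 and 191 CPM in the 2 controls against 199 and 188 CPM after knockdown. Pparg and Spi1 were also named after their values were seen. Clec4a1, Fabp4, Fabp5, Scd2, Socs3 and Maf each passed in 7 of 16 other fits, and each lost its call when any 1 of the 4 libraries was left out, with limma-voom or limma on FPKM, without the robust option and with the replicate block.

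**Figure D4:**
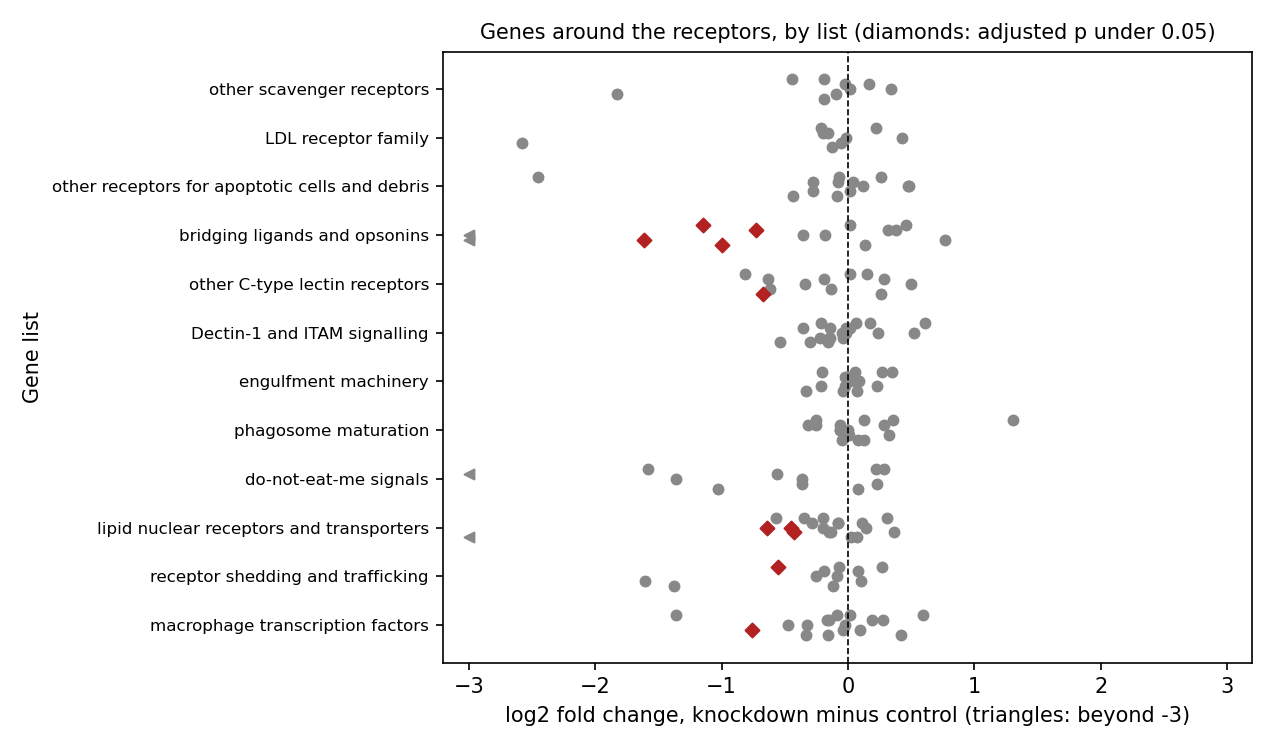
Log2 fold change (knockdown minus control) of every tested gene in the 12 lists around the receptors; red diamonds are genes with an adjusted p under 0.05, and triangles mark 4 genes beyond -3, the lowest at -6.78. The 10 diamonds all lie to the left of 0, in the lists of opsonins, C-type lectins, lipid handling, receptor shedding and trafficking, and transcription factors.

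The 5 genes whose log2 CPM, centred on each gene's mean over the 4 libraries, lay nearest to that of Marco among 9981 other genes of at least 5 CPM, taking official symbols alone, were C1qc, Mxd4, Syt7, Cmpk2 and Lyz2, at Euclidean distances of 0.119, 0.142, 0.189, 0.194 and 0.196. Lyz2, the lysozyme of macrophages, had 322 and 343 CPM in the 2 controls against 149.5 and 182 CPM after knockdown and also passed (adjusted p = 0.0159, edgeR). Mxd4, a MYC antagonist, passed as well (adjusted p = 0.0299), while Syt7, a synaptotagmin of lysosome exocytosis, and Cmpk2, a nucleotide kinase, did not (adjusted p = 0.0611 and 0.0725, edgeR). The 5 were picked for values like those of Marco in these same libraries, so a lower level after knockdown was built into the choice. Their p-values are therefore no independent evidence, and with 4 libraries such nearness is a description of these values. Of the other genes within 500 kb of Marco, a window chosen after the data were seen, 3 were tested and none passed by edgeR, with 1 at an unadjusted p of 0.05. The nearest tested one, Steap3, an endosomal metalloreductase, had 65.1 and 62.9 CPM in the 2 controls against 95.9 and 86.3 CPM after knockdown. Its log2 fold change was 0.51 ± 0.09 (adjusted p = 0.0680, edgeR), and it passed in 2 of 16 other fits. Dbi, the acyl-CoA binding protein, had 176 and 185 CPM in the 2 controls against 170.5 and 169 CPM after knockdown, and passed in 0 of 16.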

How the data were processed

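Gene expression was measured by RNA sequencing in 4 libraries, 2 control and 2 SIX2 knockdown, grouped by the genotype label. The authors deposited whole-number estimated counts for each Ensembl gene, not normalised, and FPKM values, so named per the file headers and thus relative to transcript length and library size. The submitters' processing notes list Bowtie 0.12.2 and mm8; the counting program, its strand setting and annotation are not given in the sources used here. Coordinates of all 10 receptors, and of 86.4% of the 24422 genes found in both, were identical to GENCODE M21 on GRCm38, the build used here. Another 12 columns match no labelled sample and were not used. The count table held 55401 genes.

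Testing used edgeR 4.0.16 under R 4.3.3 (filterByExpr, TMM, quasi-likelihood fit with the robust option, two-sided), with Benjamini-Hochberg adjusted p under 0.05 over all 15733 genes tested. CPM are scaled by TMM, and SE and 95% intervals come from that fit. On simulated counts (15009 genes) 26.9%, 74.6% and 100% of genes of at least 5 CPM changed 1.5-fold, 2-fold and 4-fold were called, and 9 of 143 calls were unchanged genes. The simulated spread followed the trend with level alone and left out spread particular to a gene. These shares therefore do not give the recovery or the error rate in the real libraries. DESeq2 1.42.0, limma 3.58.1 (voom, and log2 FPKM with 1 or 0.1 added), other scalings and filters, counts divided by 4, the replicate block and leaving out each library were the alternatives. The members and lists were chosen with earlier results of these data known, and 3 genes, 1 each of the lists of macrophage transcription factors, Dectin-1 and ITAM signalling, and microglia and macrophage markers, are not reported here. Genes named were the 10 receptors, Six2, up to 3 changed genes with the lowest adjusted p from each list (or the 2 most abundant where none changed) and the 5 genes nearest to Marco. Figures were drawn with matplotlib 3.10.9.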

Additional observations from a re-analysis of the deposited data

How the results depend on the processing

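The number of genes changed over all genes was 150 in the fit as reported, 681 with DESeq2, 297 when all genes with counts were kept, 65 by limma-voom, 7 without the robust option and 3 with limma on log2 FPKM with either 1 or 0.1 added. Leaving out each library gave 41 to 112. With the replicate number as a block, edgeR called 0 genes, with 2055 at an unadjusted p of 0.05, and 0 of the receptors; the labels do not say that a number marks a shared culture, and the deviations of same-numbered libraries from their group means correlated at 0.0422 across genes. The number of receptors changed was 2 with DESeq2 (Marco and Stab1), 0 without the robust option and 0 with limma on log2 FPKM with 1 or 0.1 added, against 1 in the fit as reported and in the other fits; 5 receptors stayed at an unadjusted p of 0.05 in each of the fits with 0. The median log2 fold change of the receptors, -0.47, was -0.21 and -0.38 on log2 FPKM with 1 and 0.1 added, which understates changes of low genes, and -0.40 and -0.40 with the stricter filter and with counts divided by 4, both of which drop Mrc1. Leaving out each library gave -0.47 to -0.39. Each tested receptor kept its sign in every other fit that tested it (16, or 14 for Mrc1). Over all genes named by the rule, 462 of 574 values in other fits kept direction and side of the threshold, 16 changed sign without a call in either fit (8 genes), 86 lost a call, 10 gained one and 0 reversed a call. In the 5 lists with calls, 44 of 80 counts in other fits were lower than reported, 31 equal and 5 higher; in the 7 lists with 0, 9 of 112 counts were above 0. Other than where a reason is given, the cause was not tested. Depth limits Mrc1 and Axl, and Mertk rests on 21.8 to 78.5 fragments per library.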
